A study of Mus musculus with 41 samples.

Results

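The genes Tnf, Tnfaip3, Nfkbia, Nfkbiz, Rela, Rel, Relb, Nfkb1, Nfkb2 and Icam1 of the TNF and NF-κB pathway were followed through every RNA group of a study of mouse microglia. They were chosen by symbol, and all 10 are among the 24537 symbols of the read count table. All mice were of the strain C57Bl6. Microglia are the macrophages that live in brain tissue. They were sorted by flow cytometry and profiled at once (ex vivo, 5 libraries) or after culture in medium with 5% serum and IL-34, a cytokine that keeps these cells alive and was added daily, for 6 h (2 libraries), 24 h (3 libraries, of which replicate 2 is labelled 22 h) or 7 d (5 libraries). A further 7 d culture received IL-34 with TGFβ (2 libraries), and whole brain lysate was not sorted (4 libraries). Every cultured cell had first been isolated and sorted and met serum, plastic and IL-34 together, so these cannot be told apart. The labels do not say that libraries of a group came from separate animals, and p-values therefore measure only the spread between these libraries.

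NF-κB is a family of dimeric transcription factors built from RelA (Rela), c-Rel (Rel), RelB (Relb) and the precursors p105 (Nfkb1) and p100 (Nfkb2), which are processed to p50 and p52. Inhibitor proteins such as IκBα (Nfkbia) hold the dimers in the cytoplasm until receptors, among them those for TNF, activate the IκB kinases, and NF-κB then switches on its own inhibitors along with cytokine and adhesion genes. In microglia this pathway is known for the fast production of TNF after injury or contact with microbial products.

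The promoters of the genes were searched for the DNA sequence that NF-κB is known to bind, the κB consensus of 10 bases, on both strands. RefSeq promoter windows (GRCm38.p6, the build mm10 of the submitters' processing notes, 250 bases before to 50 after a start site) were at hand for 7 of the 10 genes, in 10 windows; Nfkbiz, Nfkb1 and Relb had none. At least 1 match was present for 4 of the 7 genes (Tnfaip3, Rel, Nfkbia and Nfkb2), against 5.14% of the 27025 genes with a window and 4.51% of 32851 windows. The narrower form GGGANNTTCC was present for 2 of them, Nfkbia and Nfkb2, against 1.63% of genes. The bases upstream of the start site are printed from 5′ to 3′ in the direction of transcription, to show where the matches lie in the genes that were high at 6 h, with the matches in capitals and all other bases in lower case. Those of Nfkbia (chr12:55492648-55492897, minus strand), Nfkb2 (first of 3 windows, chr19:46304487-46304736, plus strand), Rel (chr11:23770970-23771219, minus strand) and Tnfaip3 (first of 2 windows, chr10:19015411-19015660, minus strand) hold a match, and that of Icam1 (chr9:21015690-21015939, plus strand) does not.
Nfkbia: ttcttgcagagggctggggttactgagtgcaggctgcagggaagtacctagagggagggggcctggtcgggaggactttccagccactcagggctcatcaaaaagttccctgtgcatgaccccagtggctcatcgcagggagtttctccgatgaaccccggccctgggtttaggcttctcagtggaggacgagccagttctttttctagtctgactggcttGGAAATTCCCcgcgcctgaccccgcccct
Nfkb2: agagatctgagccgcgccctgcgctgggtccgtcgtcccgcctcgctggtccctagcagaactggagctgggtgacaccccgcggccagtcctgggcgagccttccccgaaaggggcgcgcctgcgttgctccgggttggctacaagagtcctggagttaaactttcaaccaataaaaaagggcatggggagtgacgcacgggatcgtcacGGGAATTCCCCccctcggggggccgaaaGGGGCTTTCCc
Rel: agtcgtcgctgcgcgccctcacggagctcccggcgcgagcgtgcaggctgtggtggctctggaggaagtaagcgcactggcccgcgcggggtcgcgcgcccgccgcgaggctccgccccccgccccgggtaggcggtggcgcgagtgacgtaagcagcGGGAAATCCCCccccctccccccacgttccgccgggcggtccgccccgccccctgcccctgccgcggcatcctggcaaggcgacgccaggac
Tnfaip3: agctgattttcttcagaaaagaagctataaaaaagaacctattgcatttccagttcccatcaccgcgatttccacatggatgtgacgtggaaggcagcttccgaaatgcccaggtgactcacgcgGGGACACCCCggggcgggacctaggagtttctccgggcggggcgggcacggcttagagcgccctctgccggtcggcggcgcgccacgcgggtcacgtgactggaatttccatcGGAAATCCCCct
Icam1: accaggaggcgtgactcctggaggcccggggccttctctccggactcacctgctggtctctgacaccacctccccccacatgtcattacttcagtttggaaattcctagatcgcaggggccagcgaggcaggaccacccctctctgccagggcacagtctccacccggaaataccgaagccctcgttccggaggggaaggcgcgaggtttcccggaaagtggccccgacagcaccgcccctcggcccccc
Positions count from the start site, with upstream bases negative. The Nfkbia match ran from -29 to -20. In Nfkb2 matches began at -39, -38 and -11, the first and second overlapping. None of these was of the narrower form, which only the other windows of Nfkb2 held. In Rel 2 overlapping matches began at -92 and -91, and in Tnfaip3 matches began at -125 and -12. The windows of Tnf, Rela and Icam1 held none, which says only that these letters are absent from these 300 bases. A match is a description of the sequence and was not tied to binding, since no NF-κB subunit was profiled.

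RNA libraries held 11.6 to 28.8 M counts. Levels are CPM, the counts of a gene relative to its library's total and scaled with TMM factors, as mean ± SD, changes are log2 fold changes ± standard error, and a gene is called when edgeR's adjusted p over all genes tested is below 0.05. Sums of markers are CPM of the total count without TMM factors. The 10 microglial markers summed to 42549 to 52308 CPM ex vivo, 301 to 394 CPM in lysate. In culture they held 3895 to 3956 CPM (6 h), 4677 to 4911 CPM (24 h), 7540 to 11200 CPM (7 d) and 15078 to 16782 CPM (TGFβ), and none of them was at 0 in any group. Markers of other cells differed between ex vivo libraries: the 7 neutrophil markers summed to 252 and 223 CPM in replicates 2 and 3 and to 5.25 to 60.0 CPM in the others. Wherever edgeR called none of the 10 genes in a direction, 0 passed an unadjusted p of 0.05 in it and DESeq2 called 0. All libraries are bulk samples, in which fewer cells of a type and less RNA per cell cannot be told apart.

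The sort itself was examined first, with ex vivo cells (n = 5) set against lysate (n = 4), to see how far these transcripts belong to the sorted cells. This comparison was fitted and scaled on its own, so that its CPM differ somewhat from those given further on. All 10 genes were higher after the sort and none was lower, where 39.1% of 15335 genes tested were higher and 43.5% lower; the median change of the 10 was 4.51, beside -0.10 over all genes tested. Tnf, the cytokine itself, was counted only 2 times in the 4 lysate libraries together, against 57.9 ± 59.7 CPM ex vivo, a ratio between 627 and 18710 by its 95% exact Poisson interval, which covers counting error only. Icam1, an adhesion molecule that binds integrins of leukocytes, stood at 196 ± 28.9 against 2.29 ± 0.391 CPM (6.40 ± 0.19, adjusted p = 6.97e-11). Among subunits, Rel differed most (65.8 ± 13.01 against 2.00 ± 0.304 CPM, 5.03 ± 0.21) and Relb least (31.1 ± 6.46 against 6.45 ± 0.699 CPM, 2.27 ± 0.19), with Rela at 3.03 ± 0.14, Nfkb1 at 4.14 ± 0.15 and Nfkb2 at 4.24 ± 0.23. The inhibitor genes Nfkbia, Tnfaip3 and Nfkbiz were higher by 3.295 ± 0.34, 4.78 ± 0.36 and 5.64 ± 1.12. No ex vivo library overlapped a lysate library for any of the 10 genes; 36% of genes tested were higher ex vivo with no overlap. Enrichment of microglia by the sort and induction during isolation cannot be told apart here.

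The ex vivo libraries did not share 1 level of these genes. Tnf stood at 40.3, 9.44, 4.11, 130.2 and 63.9 CPM in ex vivo replicates 1 to 5, a 31.6-fold range. Nfkbiz, which encodes the inducible nuclear factor IκBζ, stood at 703, 36.8, 24.9, 455 and 132 CPM, a 28.2-fold range. Nfkbia (243, 94.2, 80.3, 189 and 212 CPM) and Tnfaip3, the gene of the ubiquitin-editing inhibitor A20 (259.7, 108, 88.7, 183 and 129 CPM), ranged 3.03-fold and 2.93-fold. For these 4 genes replicates 2 and 3 were the lowest of the 5, as for 16.5% of genes tested. The same held for the subunit genes Rela, Nfkb1 and Nfkb2, but not for Rel, Relb and Icam1. The subunit genes ranged less, from 1.26-fold for Nfkb1 to 2.02-fold for Nfkb2, and Icam1 1.48-fold.

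Immediate-early genes, which cells switch on within minutes of a stimulus, were low in the same libraries. Fos, Fosb, Jun, Junb, Egr1, Egr2, Ier2, Dusp1, Atf3, Btg2, Nr4a1 and Klf2 summed to 36252, 3258, 731, 21126 and 15174 CPM in ex vivo replicates 1 to 5. Egr1, a zinc finger factor, had 9251, 669.7, 20.3, 7590.3 and 4274 CPM there, and Dusp1, which encodes a phosphatase of MAP kinases, had 1544, 83.7, 5.40, 757 and 631 CPM. In culture the 12 genes held 7182 and 7512 CPM after 6 h, 2675 to 2967 CPM after 24 h and 835 to 1019 CPM after 7 d, or 613 and 846 CPM where TGFβ was present. The plot of ex vivo libraries shows both sets side by side. The part of the immediate-early state in the comparisons with ex vivo cells was not tested by the design. Each comparison was therefore also computed against ex vivo replicates 2 and 3 alone, a choice made after these values were seen. It is given below where it changes a call or a direction. For Tnf, Nfkbiz and the other genes lowest in these libraries, the choice itself raises the change. A call against these libraries alone is therefore no evidence for such genes.

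**Figure D1:**
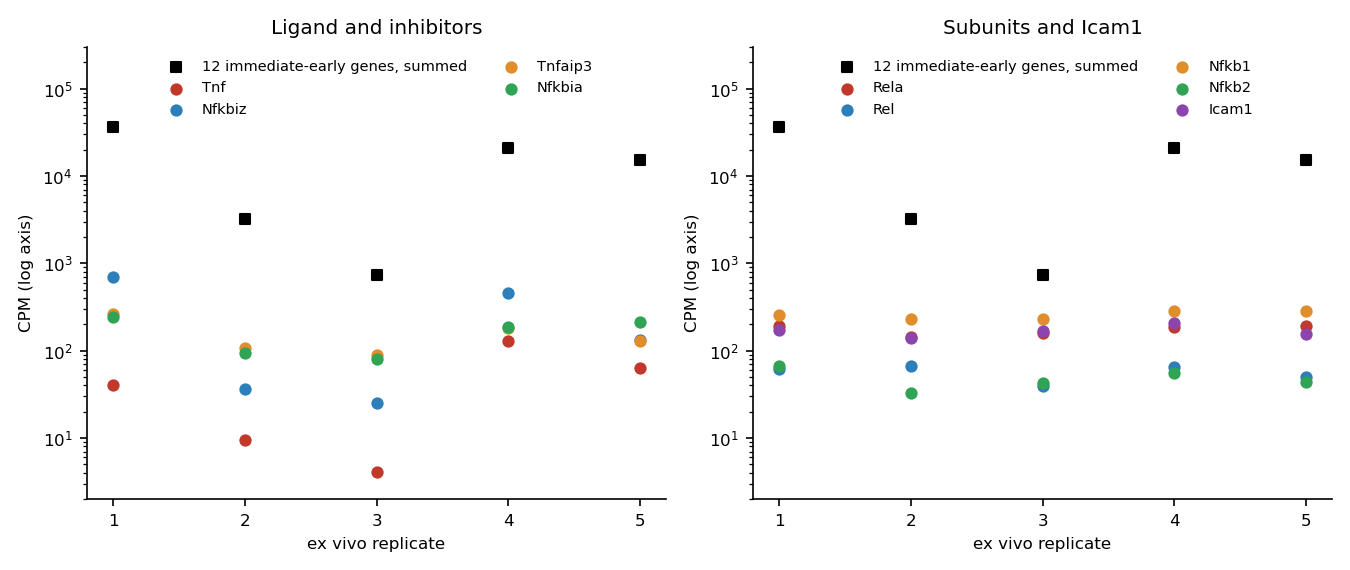
Level in CPM (log axis) of the ligand and inhibitor genes (left) and of subunit genes and Icam1 (right) in each of the 5 ex vivo libraries. Black squares are the sum of 12 immediate-early genes, and Relb is not plotted. Tnf and Nfkbiz are lowest in replicates 2 and 3, where the squares are lowest. Rela and Nfkb1 are lowest there too but stay within 1.32-fold and 1.26-fold.

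Culture for 6 h (n = 2) was compared with ex vivo cells (n = 5). Of the 10 genes 9 were higher, none was lower, and Nfkbiz was not called; 31.2% of the 13840 genes tested were higher and 36.8% lower, or 35.0% of all calls higher with the deposited TPM where 45.8% were with the counts. The median change was 2.22, beside -0.17 over all genes tested. Markers of mural cells, the contractile cells of vessels, moved at the same time: their 6 genes summed to 72.7 and 81.2 CPM at 6 h against 1.79 to 3.61 CPM ex vivo, with Rgs5, Vtn and Kcnj8 at 0 counts at 6 h. Their part in the changes at 6 h was not tested. Neither 6 h library overlapped an ex vivo library for any of the 9 genes; 33.2% of genes tested were higher at 6 h with no overlap.

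Tnf reached 1126 and 1046 CPM at 6 h, far above its highest ex vivo library of 130.2 CPM. This was 22.0-fold over the ex vivo mean of 49.6 ± 51.2 CPM (4.46 ± 0.80, edgeR adjusted p = 0.000151). On the scale of TPM, which divides by gene length, Tnf went from the seventh highest of the 10 genes ex vivo (58.5 ± 61.9 TPM) to the highest at 6 h (975 ± 40.1 TPM). The soluble ligand is released from its membrane form by the protease Adam17 with Rhbdf2, and both rose, Adam17 from 312 ± 22.2 to 739 ± 97.6 CPM (1.24 ± 0.12) and Rhbdf2 from 38.3 ± 8.53 to 468 ± 16.4 CPM (3.61 ± 0.21). Both belong to a list of ligand and release genes, of which 6 were tested. At 6 h 4 of these were higher and 2 lower, beside 31.2% and 36.8% of all genes tested.

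The inhibitors Tnfaip3 and Nfkbia rose at 6 h as well. Tnfaip3 stood at 1349 and 986 CPM at 6 h, 7.60-fold over ex vivo cells (2.93 ± 0.31, adjusted p = 3.14e-07 by edgeR). Nfkbia stood at 841 and 785 CPM, 4.97-fold higher (2.31 ± 0.36, adjusted p = 3.35e-05 by edgeR). Nfkbiz did not share this: it stood at 180.1 and 153 CPM, inside the wide ex vivo range, and was not called (-0.70 ± 0.94, adjusted p = 0.523 by edgeR). Without ex vivo replicate 1 its change was 0.07, and against ex vivo replicates 2 and 3 alone, its lowest, it was 2.46. Its direction at 6 h therefore differed with the ex vivo libraries used.

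All 5 subunit genes rose at 6 h, by unequal amounts. Relb stood at 409 and 404 CPM against 18.9 to 33.5 CPM ex vivo, 15.2-fold higher (3.93 ± 0.21, adjusted p = 1.03e-10). Nfkb2 stood at 666 and 693 CPM against 33.2 to 66.9 CPM, 14.1-fold higher (3.82 ± 0.24, adjusted p = 6.90e-10). These encode the partners RelB and p100 of the noncanonical branch. Nfkb1 rose 4.35-fold to 1261 and 986 CPM (2.12 ± 0.14), Rel 3.05-fold to 187 and 158 CPM (1.61 ± 0.23) and Rela 2.68-fold to 460.0 and 473 CPM (1.42 ± 0.16). Icam1, a target gene, stood at 416 and 396 CPM against 139 to 206 CPM ex vivo and rose 2.41-fold (1.27 ± 0.18, adjusted p = 1.07e-05).

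**Figure D2:**
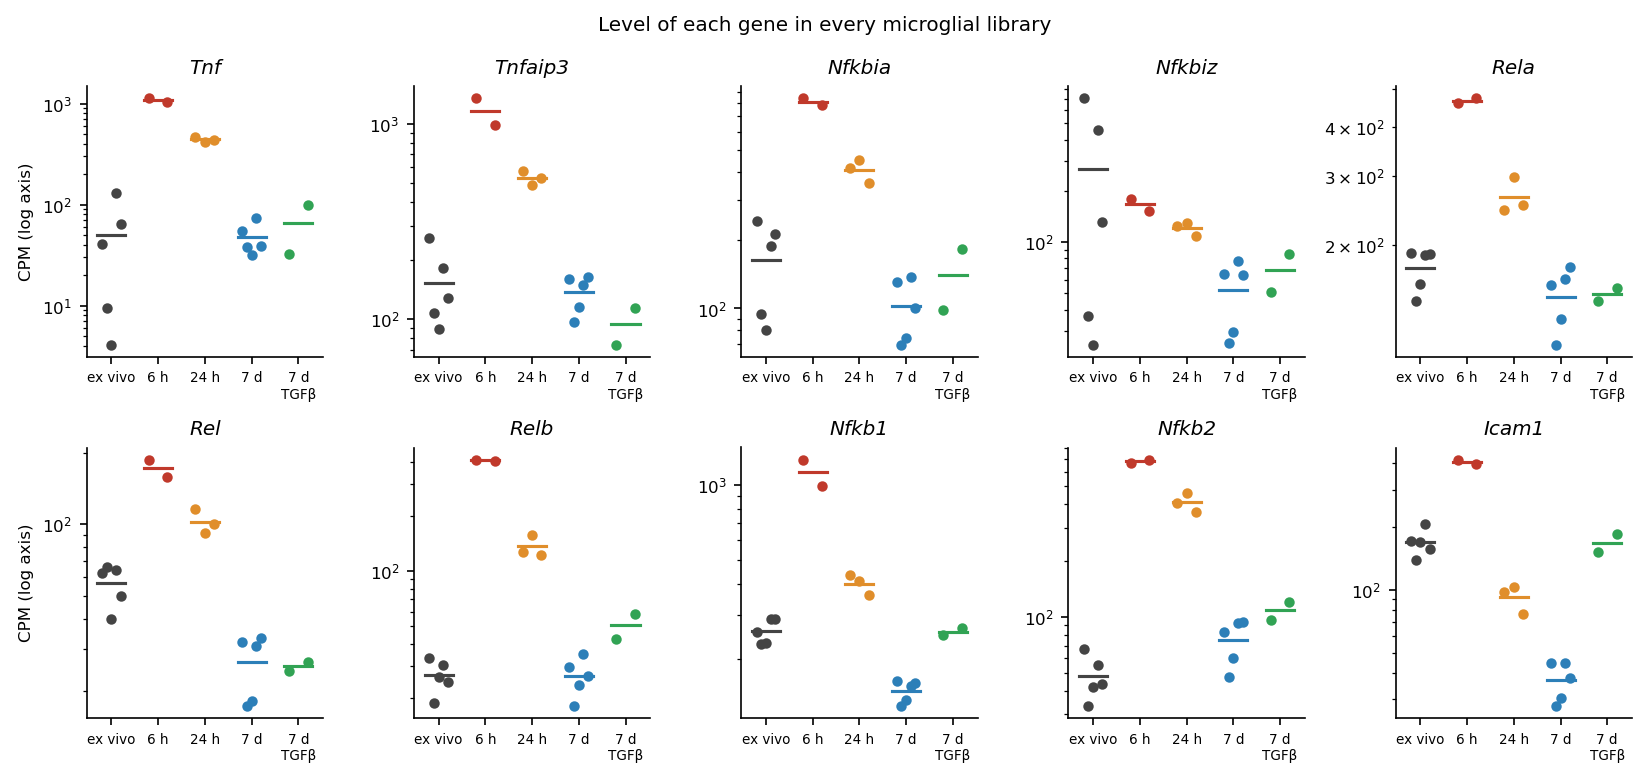
Level of each gene in CPM (log axis) in all 17 microglial libraries, by group; points are libraries and bars are group means. The 2 libraries at 6 h are above every other library for all genes but Nfkbiz, whose ex vivo libraries spread from 24.9 to 703 CPM.

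After 24 h (n = 3) 7 of the 10 genes were lower than at 6 h, and 8 were higher than in ex vivo cells. Against ex vivo cells 1, Icam1, was lower and Nfkbiz was not called; 29.6% of genes tested were higher and 33.1% lower, and the medians were 1.09 for the 10 genes and -0.06 over all. Against 6 h none was higher, and Tnf, Nfkbia and Nfkbiz were not called, where 22% of genes tested were higher and 19.8% lower (52.7% of all calls higher with the counts, 74.6% with the deposited TPM), with medians of -1.07 and 0.01. The 6 mural markers summed to 72.7 and 81.2 CPM at 6 h and to 7.12 to 9.37 CPM at 24 h, with Rgs5, Vtn and Kcnj8 at 0 at both times, and their part in these changes was not tested. Both comparisons with 24 h share its libraries, and the values are given side by side only.

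Tnf stood at 471, 416 and 435 CPM at 24 h, between the ex vivo and the 6 h libraries with no overlap. It was 8.92-fold above ex vivo cells (3.16 ± 0.73, adjusted p = 0.00155). The fall of 2.46-fold from 6 h was not called in the model of all 17 libraries (-1.30 ± 0.90, adjusted p = 0.264 by edgeR), in which the ex vivo spread enters the error, and was called with the 6 h and 24 h libraries alone (-1.25, adjusted p = 1.65e-05). Likewise Nfkbia, at 417, 448 and 355 CPM, was 2.48-fold above ex vivo cells (1.31 ± 0.33) and not called against 6 h (-0.9995 ± 0.42, adjusted p = 0.0659 by edgeR), but called with the 2 groups alone (-0.95, adjusted p = 0.000123). Tnfaip3, at 572, 486 and 525 CPM, was 3.43-fold above ex vivo cells (1.78 ± 0.28) and 2.21-fold below 6 h (-1.15 ± 0.35, adjusted p = 0.0157), a call lost with the deposited TPM (-0.78, adjusted p = 0.0872 by limma) and without 6 h replicate 1 (-0.92, adjusted p = 0.145). In such a fit the 1 library left at 6 h is assumed to vary like the other groups. Nfkbiz, at 125, 129 and 109 CPM, was not called against ex vivo cells (-1.16 ± 0.83, adjusted p = 0.235 by edgeR). Against ex vivo replicates 2 and 3 alone, its lowest, its change was 1.99. Against 6 h it was called with the 2 groups alone (-0.41, adjusted p = 0.00993).

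Among the subunits Nfkb2 was furthest above ex vivo cells at 24 h. It stood at 405, 462 and 365 CPM, 8.52-fold above ex vivo cells (3.09 ± 0.23, adjusted p = 4.07e-09). Relb (128, 159 and 123 CPM) was 5.11-fold above them (2.35 ± 0.20), and Rel, Nfkb1 and Rela were 1.81-fold, 1.55-fold and 1.52-fold above. From 6 h to 24 h Relb fell 2.98-fold (-1.57 ± 0.24), Nfkb1 2.80-fold (-1.49 ± 0.16) and Rela 1.76-fold (-0.82 ± 0.18). Nfkb2 fell 1.66-fold (-0.73 ± 0.28, adjusted p = 0.0452) and Rel 1.68-fold (-0.75 ± 0.27, adjusted p = 0.0313); Nfkb2 lost its call when any 1 of the 5 libraries was left out (adjusted p 0.0546 to 0.160), and Rel when any but 24 h replicate 1 was (0.0599 to 0.187). Both calls were also lost with a replicate block (adjusted p = 0.0693 and 0.0570), with no filter on low counts (0.0768 and 0.0501) and with the deposited TPM, where Nfkb2 was at -0.38 (adjusted p = 0.303 by limma) and Rel at -0.40 (adjusted p = 0.268 by limma).

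Icam1 was the 1 member called below its ex vivo level at 24 h. It stood at 97.4, 103.01 and 76.3 CPM at 24 h, all under the lowest ex vivo library of 139 CPM. It was 1.82-fold below ex vivo cells (-0.87 ± 0.17, adjusted p = 0.000364) and 4.40-fold below 6 h (-2.14 ± 0.21, adjusted p = 1.24e-06). Its change at 24 h against ex vivo cells thus had the opposite sign to that of Tnf, Tnfaip3, Nfkbia and the 5 subunit genes.

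At 7 d (n = 5) all of the genes but Nfkbiz, which was not called, were lower than at 6 h and than at 24 h. Against ex vivo cells 1 of 10 genes was higher (Nfkb2) and 4 were lower (Nfkbiz, Nfkb1, Rel and Icam1), where 34.8% of genes tested were higher and 35.7% lower, so that the share of the 10 that was lower lay near that of all genes and the share that was higher lay below it; with the deposited TPM and no filter 38.9% of all calls were higher in place of 49.4%. The medians were -0.46 and -0.02. Against 24 h none was higher and 9 of 10 were lower (27.2% and 21.6% of genes tested; 40.8% of calls higher with the deposited TPM in place of 55.8%), with medians of -1.95 and 0.06. Against 6 h none was higher and 9 of 10 were lower (36% and 29.9%), with medians of -3.04 and 0.15. The 5 border macrophage markers, none at 0, summed to 54.5 to 119 CPM at 7 d against 2.07 and 4.81 CPM at 6 h and 1.08 to 2.65 CPM at 24 h, and the mural markers to 1.32 to 20.0 CPM at 7 d. Their part in these changes was not tested. Nfkbiz was the gene not called in the last 2, and with only the groups compared in the fit it was lower in both (-1.26, adjusted p = 0.0137, and -1.70, adjusted p = 0.00656).

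Tnf stood at 55.0, 38.2, 31.8, 74.3 and 38.8 CPM at 7 d, inside the ex vivo range and with a smaller spread. It did not pass the test against ex vivo cells (-0.05 ± 0.64, adjusted p = 0.945 by edgeR), and it was 9.26-fold below 24 h (-3.21 ± 0.73) and 22.8-fold below 6 h (-4.51 ± 0.80). Against ex vivo replicates 2 and 3 alone, its lowest ex vivo libraries at 9.44 and 4.11 CPM, the change of Tnf at 7 d was 2.82. The choice of these libraries itself raises the change. Whether Tnf had returned to its starting level was therefore not settled, since the ex vivo libraries do not share 1 level.

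The inhibitors were near or below their ex vivo means at 7 d. Nfkbiz stood at 64.5, 25.4, 29.5, 77.2 and 64.2 CPM. Ex vivo replicate 2 (36.8 CPM) lay inside this range, replicate 3 (24.9 CPM) just below it and the others above it. The fall of Nfkbiz of 5.18-fold was called with all libraries (-2.37 ± 0.72, adjusted p = 0.00847 by edgeR). The call was lost without 7 d replicates 2 and 3 (-1.98, adjusted p = 0.0826) and with the deposited TPM (-1.66, adjusted p = 0.0524), and against ex vivo replicates 2 and 3 alone the sign turned (0.75, adjusted p = 0.127). Nfkbia stood at 131, 69.4, 74.2, 137 and 101 CPM and just missed the threshold (-0.68 ± 0.29, adjusted p = 0.0511 by edgeR); it was called under 10 alternatives, such as RLE scaling (-0.74, adjusted p = 0.0379), and turned to 0.22 (adjusted p = 0.525) against ex vivo replicates 2 and 3 alone. Tnfaip3, at 161, 97.2, 115, 149 and 164 CPM, was not called (-0.16 ± 0.25, adjusted p = 0.575 by edgeR).

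The subunit genes parted at 7 d. Rel stood at 32.1, 17.2, 18.1, 30.8 and 33.2 CPM, all under its lowest ex vivo library of 39.9 CPM (-1.11 ± 0.19, adjusted p = 7.05e-05). Nfkb1 stood at 162, 129, 136, 155 and 159 CPM, all under 228 CPM (-0.80 ± 0.11, adjusted p = 8.38e-06). Nfkb2 stood at 83.0, 47.6, 59.7, 92.1 and 93.9 CPM, overlapping the ex vivo libraries, and was higher by 0.64 ± 0.20 (adjusted p = 0.00821), a call lost with the deposited TPM (0.42, adjusted p = 0.0658). Relb (26.6 ± 6.33 against 26.7 ± 5.60 CPM) and Rela (147 ± 26.4 against 174 ± 21.5 CPM) were not called with the counts, with changes of -0.01 ± 0.17 and -0.24 ± 0.13; Rela was called lower with the deposited TPM (-0.47, adjusted p = 0.00312) and without 7 d replicate 5 or ex vivo replicate 2 (adjusted p = 0.0436 and 0.0435). Replicates 2 and 3 were the lowest 2 of the 5 libraries at 7 d for all 10 genes, as for 26% of genes tested.

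Icam1 had fallen furthest of the members called at 7 d apart from Nfkbiz. It stood at 44.6, 27.8, 30.2, 44.6 and 37.6 CPM, with no library near the ex vivo range of 139 to 206 CPM. This was 4.55-fold below ex vivo cells (-2.19 ± 0.15, adjusted p = 2.03e-09), 2.49-fold below 24 h (-1.32 ± 0.17) and 10.98-fold below 6 h (-3.46 ± 0.18).

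**Figure D3:**
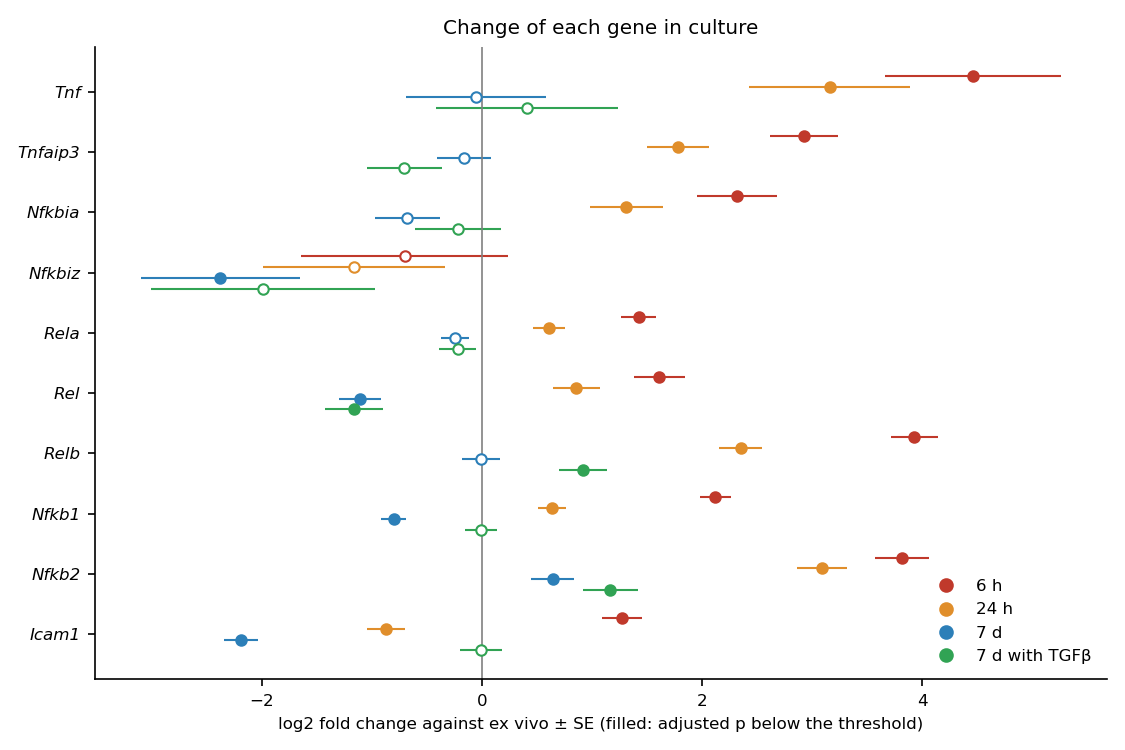
Log2 fold change ± standard error of each gene against ex vivo cells at 6 h, 24 h, 7 d and 7 d with TGFβ (all share the ex vivo libraries); filled points passed edgeR's test. At 6 h all genes but Nfkbiz lie to the right of 0, and at 7 d Icam1 lies at -2.19 without TGFβ and at -0.01 with it.

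TGFβ, a cytokine that microglia receive in the brain, was added to 7 d cultures (n = 2) and compared with 7 d in IL-34 alone (n = 5). Of the 10 genes 3 were higher (Icam1, Nfkb1 and Relb) and none was lower; 9.57% of genes tested were higher and 6.52% lower (59.5% of all calls higher with the counts, 37.8% with the deposited TPM). The medians were 0.46 for the 10 genes and -0.04 over all genes tested.

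Icam1 stood at 151 and 184 CPM with TGFβ and at 27.8 to 44.6 CPM without, with no overlap. It was 4.52-fold higher (2.18 ± 0.18, adjusted p = 2.81e-07). Its mean of 167 ± 23.0 CPM lay beside 168 ± 24.8 CPM in ex vivo cells, a difference of -0.01 ± 0.19 with the counts and of -0.36 (adjusted p = 0.131 by limma) with the deposited TPM. Nfkb1 stood at 248 and 266 CPM against 129 to 162 CPM without TGFβ (0.79 ± 0.14, adjusted p = 0.000867) and had 258 ± 29.0 CPM in ex vivo cells (-0.01 ± 0.15), below which it was called with the deposited TPM (-0.36, adjusted p = 0.0389 by limma). Relb stood at 42.4 and 58.5 CPM against 18.2 to 35.1 CPM (0.92 ± 0.22, adjusted p = 0.00711) and was not called without TGFβ replicate 2 (0.69, adjusted p = 0.176), a fit in which the 1 library left with TGFβ is assumed to vary like the other groups.

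The other members did not pass this test. Nfkb2 stood at 96.3 and 120.2 CPM, above all 7 d libraries (0.52 ± 0.25, adjusted p = 0.181 by edgeR). The 2 TGFβ libraries disagreed for Tnf (32.5 and 98.6 CPM), Nfkbia (98.8 and 183 CPM) and Nfkbiz (50.8 and 85.5 CPM), replicate 2 being the higher for all 3. Without that replicate the changes were -0.53 for Tnf, -0.03 for Nfkbia and -0.02 for Nfkbiz in place of 0.46, 0.46 and 0.39. Tnfaip3 (94.3 ± 28.2 against 137 ± 29.6 CPM), Rel (25.3 ± 1.42 against 26.3 ± 7.90 CPM) and Rela (149 ± 7.90 against 147 ± 26.4 CPM) were not called. Markers of other cells differed between these groups as well: the 6 mural markers summed to 124 and 351 CPM with TGFβ against 1.32 to 20.0 CPM without, with Rgs5, Vtn and Kcnj8 at 0 in both, the 5 border macrophage markers to 8.29 and 8.46 against 54.5 to 119 CPM, and the microglial markers as given above. The 8 endothelial markers summed to 86.5 and 47.0 CPM with TGFβ and to 15.9 to 44.4 CPM without. Of these Cldn5, Slco1a4 and Ly6c1 were at 0 in both groups. The same markers summed to 48.0 to 60.7 CPM ex vivo and to 13.4 to 19.1 CPM at 24 h. The part of all these markers in the result for Icam1 was not tested.

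Against ex vivo cells 7 d with TGFβ left 2 genes higher and 1 lower (28.3% and 27.5% of genes tested; 32.8% of calls higher with the deposited TPM in place of 50.8%), with medians of -0.11 for the 10 genes and -0.05 over all. Nfkb2 was higher (108 ± 16.97 against 48.2 ± 12.99 CPM, 1.17 ± 0.25, adjusted p = 0.000847), as was Relb (0.92 ± 0.22, adjusted p = 0.00215, not called without TGFβ replicate 2 at adjusted p = 0.0769). Rel was lower (-1.16 ± 0.27, adjusted p = 0.00150). Tnf was not called with all libraries (0.41 ± 0.82, adjusted p = 0.690 by edgeR). Its change against ex vivo replicates 2 and 3 alone, its lowest, was 3.29. Nfkbiz (-1.99 ± 1.02, adjusted p = 0.109 by edgeR) was called lower without ex vivo replicate 2 or 3 (adjusted p = 0.0461 and 0.0350) and turned to 1.14 (adjusted p = 0.0607) against those 2 alone. Tnfaip3 (-0.70 ± 0.34, adjusted p = 0.0901 by edgeR) was called lower with the deposited TPM (-0.97, adjusted p = 0.0176), as was Rela (-0.57, adjusted p = 0.00734), and without ex vivo replicate 3 (-0.85, adjusted p = 0.0341).

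The order of the groups by mean CPM was 6 h, then 24 h, for 8 of the genes, and 6 h was highest for all but Nfkbiz, whose ex vivo mean of 270.2 CPM rests on replicates 1, 4 and 5. For Tnf the order went on with TGFβ, ex vivo and 7 d, neighbours that did not pass the tests made; 24 h and TGFβ were not compared by a test. For Icam1 the order was 6 h, ex vivo, TGFβ, 24 h and 7 d. Of these neighbours ex vivo and TGFβ did not pass the test, and TGFβ and 24 h were not compared by one. With the deposited TPM the order was the same for 9 of the genes, and for Rela the TGFβ and 7 d groups, 149 and 147 CPM, changed places.

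The makeup of the subunit transcripts was described in TPM, which allows levels of different genes to be compared. The 5 subunit genes together held 343 ± 37.0 TPM ex vivo and 35.8 ± 1.63 TPM in lysate. Their sum was 1372 ± 57.9 TPM (6 h), 819.5 ± 61.0 TPM (24 h), 229 ± 43.3 TPM (7 d) and 282 ± 38.7 TPM (TGFβ). Rela made up 36.3 ± 1.39% of the ex vivo sum, 18.7 ± 1.38% of that at 6 h, 22.5 ± 1.48% of that at 24 h and 39.5 ± 1.01% of that at 7 d. Nfkb2 made up 8.90 ± 1.64% ex vivo, then 24.5 ± 1.73% (6 h), 31.5 ± 0.976% (24 h), 17.99 ± 1.89% (7 d) and 19.4 ± 1.09% (TGFβ). No library of the cultures fell into the ex vivo range for Nfkb2, whose ex vivo shares ran from 7.11 to 11.4% and whose lowest cultured share was 15.4%. Relb went from 6.84 ± 0.987% ex vivo to 20.1 ± 0.912% at 6 h and 8.76 ± 1.04% at 7 d, and Rel from 12.4 ± 2.63% to 7.22 ± 0.466% and 7.24 ± 1.00%. Nfkb1 held 35.6 ± 2.08% ex vivo, 26.5 ± 2.66% at 7 d and 33.6 ± 1.43% with TGFβ. Nfkbia, the main inhibitor, had a ratio to the 5 subunits of 0.569 ± 0.205 ex vivo (0.326 to 0.793), a range that holds every cultured library: the means were 0.558 ± 0.00232 (6 h), 0.592 ± 0.0240 (24 h), 0.465 ± 0.0796 (7 d) and 0.471 ± 0.159 (TGFβ). These are shares of mRNA and were not tested.

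**Figure D4:**
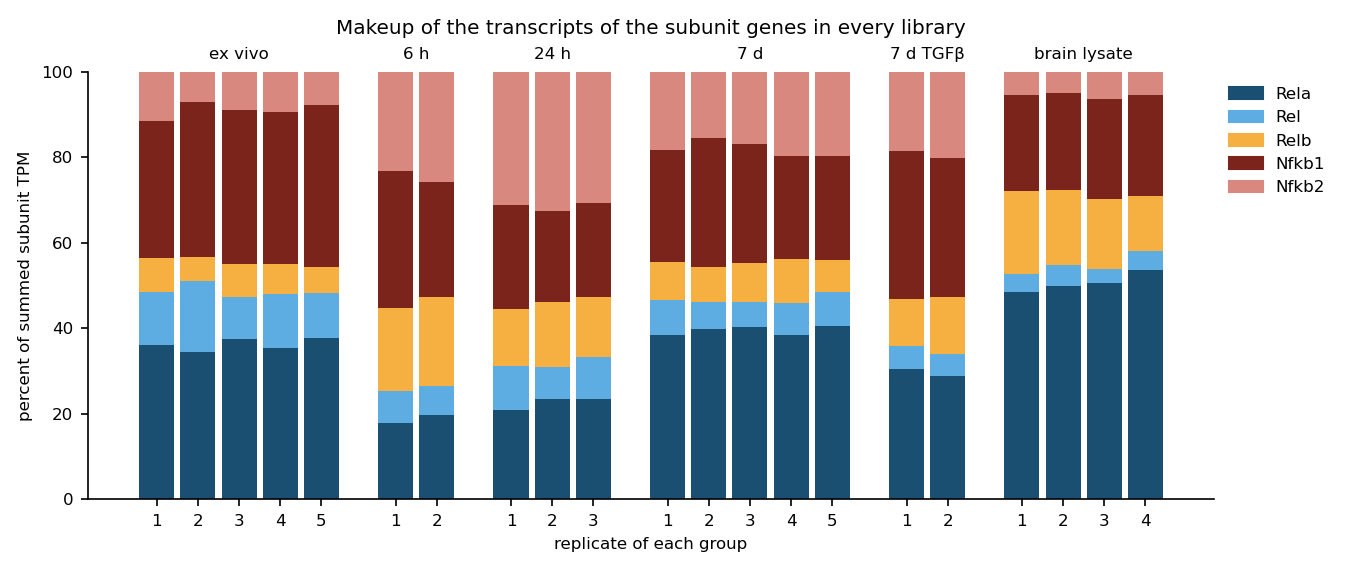
Share in percent of each subunit gene in the summed TPM of Rela, Rel, Relb, Nfkb1 and Nfkb2, 1 bar per library, grouped by condition. Nfkb2 takes 7.11 to 11.4% in the ex vivo bars and at least 15.4% in every cultured bar.

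The other genes of the pathway were taken from 6 role lists of 80 genes, all present in the table, of which 74 were tested in the cultures and 65 against lysate. Against ex vivo cells 51 were higher and 11 lower at 6 h, 68.9% and 14.9%, beside 31.2% and 36.8% of all genes tested. At 24 h it was 43 and 12, 58.1% and 16.2%, beside 29.6% and 33.1%. The 24 and 25 at 7 d, 32.4% and 33.8%, lay near the 34.8% and 35.7% of all genes. Between cultures 7 were higher and 30 lower from 6 h to 24 h, 9.46% and 40.5%, beside 22% and 19.8% of all genes. From 24 h to 7 d it was 9 and 45, 12.2% and 60.8%, beside 27.2% and 21.6%. From 6 h to 7 d it was 10 and 49, 13.5% and 66.2%, beside 36% and 29.9%. TGFβ at 7 d gave 9 higher and 4 lower against 7 d alone, 12.2% and 5.41%, beside 9.57% and 6.52%. It gave 20 and 16 against ex vivo cells, 27.03% and 21.6%, beside 28.3% and 27.5% of all genes. Of the 65 tested against lysate 54 were higher and 5 lower ex vivo, 83.1% and 7.69%, beside 39.1% and 43.5%. The same shares of all genes belong beside the counts of single role lists below.

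Receptors and their signalling partners also moved at 6 h, where 31.2% of all genes tested were higher and 36.8% lower. Of 5 receptor genes tested 4 were higher and none lower, with the TNF receptor gene Tnfrsf1b at 3031 ± 247 against 629.5 ± 71.99 CPM (2.27 ± 0.18) and Tnfrsf11a, the receptor RANK, at 981 ± 32.1 against 193 ± 14.8 CPM (2.35 ± 0.16); Cd40 stood at 0.425 ± 0.0321 CPM, beside 0.285 ± 0.238 CPM ex vivo, without a call. Of 19 genes of the receptor complex 12 were higher and 6 lower, with the ubiquitin ligase gene Birc3 at 182 ± 31.6 CPM (2.22 ± 0.20), the deubiquitinase gene Otulin at 65.3 ± 3.60 CPM (1.52 ± 0.12), and the kinase gene Map3k7 at 123 ± 14.5 against 104 ± 15.2 CPM not called. Of 7 kinase genes 5 were higher and none lower, with Ikbke, a kinase related to the IκB kinases, from 1.78 ± 0.795 to 79.7 ± 20.7 CPM (5.46 ± 0.37) and Map3k14, the kinase NIK of the noncanonical branch, from 67.4 ± 16.7 to 382 ± 3.87 CPM (2.50 ± 0.21); Ikbkb, the catalytic subunit IKKβ, was not called (-0.08 ± 0.12). At 24 h Tnfrsf1b was still at 3096 ± 236 CPM, Map3k14 had fallen to 77.6 ± 11.3 CPM (-2.30 ± 0.25 from 6 h), and at 7 d Map3k14 was lower than ex vivo (40.9 ± 8.91 CPM, -0.72 ± 0.17).

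The inhibitor and target lists were counted in the same way. Of all genes tested 31.2% were higher and 36.8% lower at 6 h, 29.6% and 33.1% at 24 h, and 34.8% and 35.7% at 7 d. Of 14 further inhibitor genes 11 were higher and 1 lower at 6 h, 11 and 2 at 24 h, and 5 and 4 at 7 d. Bcl3, a nuclear IκB protein, rose from 3.12 ± 0.660 to 113 ± 16.2 CPM at 6 h (5.17 ± 0.36) and Tnip2, an A20-binding protein, from 44.2 ± 5.88 to 169.7 ± 7.44 CPM (1.94 ± 0.12), while Zfp36, which marks cytokine mRNA for decay, was not called (2737 ± 255 against 2511 ± 2116 CPM). Of 25 target genes tested 17 were higher and 2 lower at 6 h, 15 and 4 at 24 h, and 10 and 8 at 7 d. The cytokine gene Il1b went from 4.19 ± 1.06 CPM ex vivo to 453 ± 108 CPM (6 h), 72.1 ± 22.3 CPM (24 h) and 0.377 ± 0.338 CPM (7 d). Cd83, an activation marker, rose to 1389.9 ± 44.5 CPM at 6 h (3.86 ± 0.26), and Sod2, the mitochondrial superoxide dismutase, to 213 ± 49.7 CPM at 24 h (3.16 ± 0.22). At 7 d the survival genes Bcl2a1b (188 ± 36.8 against 20.05 ± 5.46 CPM, 3.23 ± 0.18) and Bcl2a1d (5.17 ± 0.35) were higher, near-identical copies whose counts are uncertain. The chemokine gene Ccl3 was not called at 7 d (409 ± 116 against 292 ± 223 CPM).

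With TGFβ 12.2% of the 74 genes were higher and 5.41% lower than at 7 d alone, near the 9.57% and 6.52% of all genes tested. Tnip1, another A20-binding protein, was higher (102 ± 48.3 against 31.0 ± 3.04 CPM, 1.72 ± 0.19), as were the adaptors Traf2 (0.69 ± 0.14) and Traf3 (0.87 ± 0.20), Tnfsf13b, the ligand BAFF (2.15 ± 0.41), and Nos2, the inducible nitric oxide synthase (11.4 ± 12.9 against 0.314 ± 0.407 CPM, 5.16 ± 0.97). The SD of Nos2 with TGFβ exceeded its mean, so that its libraries there differed widely. Tnfrsf11a (-0.94 ± 0.18) and the stress gene Gadd45b (2.57 ± 0.433 against 24.0 ± 9.83 CPM, -3.23 ± 0.62) were lower. Tbk1, a kinase related to the IκB kinases, was not called (104 ± 14.7 against 137 ± 10.2 CPM).

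The genes whose log2 CPM pattern over the 17 microglial libraries came closest to each member were named by the root mean square difference after centring. Relb and Nfkb2 were close to each other (0.36), Nfkb2 having Relb as its nearest gene, followed by Tnfaip2 (0.37) and Alas1 (0.40). Nfkbia was nearest to Zc3h12a (0.31), an endonuclease gene on the inhibitor list, then Rnf19b (0.35) and Pik3r5 (0.38). Tnfaip3 was nearest to Hivep1 (0.39), Zc3h12a (0.41) and Nfkbia (0.42). The nearest genes were Sik3, Micall1 and Socs7 for Nfkb1 (0.20 to 0.26), BC005561, Ino80d and D930016D06Rik for Rel (0.24 to 0.31), and Hmgxb3, Ankrd11 and Fiz1 for Rela (0.13 to 0.15). Relb was nearest to Zswim4 (0.26) followed by Nfkb2 and Osgin1 (0.38), and Icam1 was nearest to Smox, Ptprs and Neurl3 (0.38 to 0.39). Tnf (Pim1 0.82, Abcc1 0.96, Mir21a 1.00) and Nfkbiz (Jund 0.63, Btg1 0.65, Siah2 0.66) had no gene as near. The difference is not scaled to how far a gene itself varied. The root mean square of the centred gene was 2.19 for Tnf and 1.30 for Nfkbiz. For the other members it ran from 0.57 (Rela) to 1.44 (Nfkb2). All points share libraries and groups, and no test was made.

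Chromatin was profiled ex vivo and at 7 d (1 of the 2 ATAC libraries at 7 d is labelled 8 d), with the authors' peaks called on pooled libraries, so that peak counts have no replicates and were not tested. Peaks were taken by position, and some may belong to neighbouring genes. Within the gene bodies and 10 kb on either side of the 10 genes lay 83 peaks of accessible chromatin (ATAC) ex vivo and 90 at 7 d. Of the ex vivo peaks 67 (80.7%) overlapped a 7 d peak by at least 1 bp, beside 75.0% of all 90674 ex vivo peaks, and of the 7 d peaks 74.4% overlapped an ex vivo peak, beside 60.2% of all 112977. Peaks of H3K27ac, a mark of active promoters and enhancers, covered 99614 bases there ex vivo and 68384 at 7 d, in 28 and 30 peaks, while the whole lists covered 61.3 and 50.9 Mb. PU.1, the lineage factor of macrophages, had 70 peaks at these genes ex vivo, of which 48 overlapped an ex vivo ATAC peak and 46 a 7 d one, and H3K4me2, a mark of promoters and enhancers, had 31. An ATAC peak lay over a promoter window of all 7 genes with a window ex vivo and of 5 at 7 d (36.7% and 37.3% of all windows), an H3K27ac peak over all 7 at both times (35.6% and 32.8%), and a PU.1 peak over 4 (23.5%).

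Peaks differed from gene to gene. At Tnf (chr17:35199367-35202007) all 7 ex vivo ATAC peaks overlapped a 7 d peak, among them 1 over the start site, and 2 more were listed at 7 d only. Nfkbia (chr12:55489409-55492647) kept all 5 and Rela (chr19:5637442-5648134) all 3. At Nfkbiz (chr16:55811375-55838954) 4 of 11 ex vivo ATAC peaks had no 7 d counterpart, and 1 of 8 peaks at 7 d was new. At Nfkb1 (chr3:135584655-135691969), a long gene, 22 of 25 ex vivo peaks had one, 11 of 33 peaks at 7 d had no ex vivo counterpart, and H3K27ac covered 28377 bases ex vivo against 10070 at 7 d. At Rel (chr11:23736847-23770969) the 7 d peak nearest the start site overlapped the ex vivo peak but ended outside the promoter window.

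H3K27ac peaks covered fewer bases at 7 d than ex vivo at 8 of the 10 genes, all but Tnfaip3 and Nfkbia. The same held for 71.7% of the 18329 RefSeq genes with an H3K27ac peak at both times, so that the share of the 10 is near that of all genes. Icam1 (chr9:21015940-21028814) was 1 of the 8. Of its 8 ex vivo ATAC peaks 3 had no 7 d counterpart, and their centres lay at -7777, -1140 and -7 bases from the start site. The last of these covers the 3′ end of the Icam1 sequence printed above. The peak at -542 and 4 peaks from 13677 to 17460 bases downstream of the start site were listed at both times, and 1 peak at 6088 bases downstream at 7 d only. H3K27ac covered 10578 bases at Icam1 ex vivo and 4891 at 7 d, where 3 peaks of 501, 838 and 501 bases stood in place of the ex vivo peak of 4883 bases beyond the gene's end. Of 8 PU.1 peaks at Icam1 6 overlapped an ex vivo ATAC peak, 1 of them the peak at -1140. Chromatin of cultures with TGFβ was not analysed here.

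**Figure D5:**
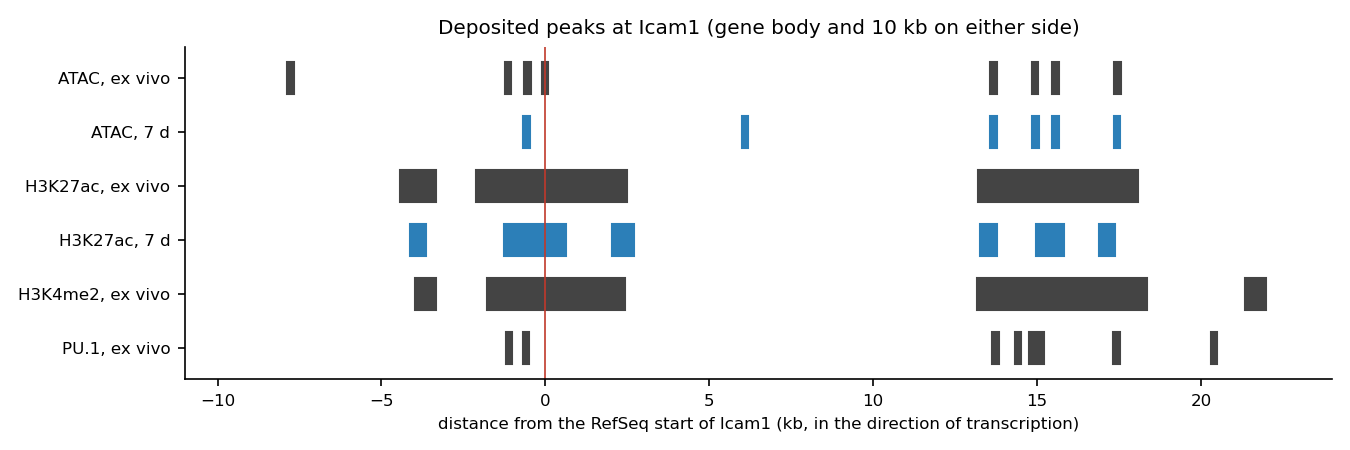
Peaks of the 6 deposited lists at Icam1, by distance in kb from the RefSeq start site in the direction of transcription (ex vivo in grey, 7 d in blue, start site as a red line). The ATAC peak at the start site is listed ex vivo only, and H3K27ac covers 10578 bases ex vivo and 4891 at 7 d.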

How the data were processed

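RNA-seq counts of 24537 gene symbols in 21 libraries were used, as the authors deposited them per the file headers. Per the submitters' processing notes, HOMER, limma, R 3.3.1, bedtools, Bowtie2 and STAR were used with the builds mm10 and hg38, without roles; read assignment to genes and strand use: not given in the sources used here. The deposited TPM values come from the same libraries, normalized by the authors. Deposited peak lists hold positions with no score, and the peaks were called by the authors with HOMER on pooled libraries, per the file headers, with mm10 taken as their build from the notes.

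From the counts, edgeR 4.0.16 in R 4.3.3 (TMM, filterByExpr, robust quasi-likelihood test, Benjamini-Hochberg threshold 0.05) tested 13840 genes in 1 model of the 17 microglial libraries, and 15335 genes in a fit of the 9 ex vivo and lysate libraries. The standard error is the change over the root of F. CPM use TMM library sizes of the fit concerned, except sums of markers, which use total counts. Alternatives were DESeq2 1.42.0, limma 3.58.1 on log2(TPM + 1) or log2(TPM + 0.1), RLE scaling, no filter, a replicate block, and left-out libraries. The steps were tested on data simulated with the same relative spread for every gene. That does not cover the wide ex vivo spread of Tnf and Nfkbiz. Replicates differed by more than counting noise. Of each role list and comparison, genes could be named only from the 2 called with the smallest adjusted p and the 1 uncalled with the highest mean CPM. The members, the role lists and the marker lists were chosen with earlier results of these data known. Same-numbered replicates correlated between -0.12 and 0.35 in their deviations. The values were 0.21 and 0.20 for 24 h against 6 h, 0.10 and 0.35 for TGFβ against 7 d, and at most 0.15 elsewhere. The labels do not tie the numbers to shared animals or days, so they were not treated as pairs. Results with a replicate block are given below.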

Additional observations from a re-analysis of the deposited data

How the results depend on the processing

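Of 1460 alternative values for single genes, 1335 stayed on the same side of the threshold in the same direction, 34 lost the call, 35 gained one and 56 changed sign. RLE scaling moved the median of all genes by -0.28 in the lysate comparison and by -0.13 for 7 d against 6 h (DESeq2 -0.29 and -0.14), and by less than 0.1 elsewhere. Peak counts follow their settings: within 2 kb 61 ex vivo and 66 7 d ATAC peaks lay at the genes, and within 50 kb 182 and 201. The labels do not tie replicate numbers to a shared animal or day, and 2 of 8 (lysate), 0 of 6 (24 h against ex vivo), 4 of 10 (7 d against ex vivo) and 2 of 6 (7 d against 24 h) libraries correlated best with their own number. Comparisons with only 2 shared numbers, among them 24 h against 6 h and TGFβ against 7 d, were left out of this count. With a replicate block Tnf at 7 d was 0.53, Nfkbia at 7 d was called (-0.63, adjusted p = 0.0468), Nfkb2 and Rel lost their calls for 24 h against 6 h (adjusted p = 0.0693 and 0.0570), and Nfkb1 and Icam1 with TGFβ against ex vivo cells were 0.044 and 0.040.

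Against ex vivo replicates 2 and 3 alone, a choice made after seeing the data, the change of Nfkbiz was 2.46 (6 h), 1.99 (24 h), 0.75 (7 d) and 1.14 (TGFβ). At 7 d Tnf was 2.82, Tnfaip3 0.47, Nfkbia 0.22 and Relb 0.21. There 2 members were called higher, a count that this choice of low libraries favours, beside 4020 of all genes (4821 with all ex vivo libraries). With TGFβ Nfkbia was 0.69, Nfkb1 0.15 and Icam1 0.11. Leaving out 1 library at a time moved Nfkbiz at 6 h from -0.99 to 0.070, and at 7 d Tnf from -0.37 to 0.67, Tnfaip3 from -0.32 to 0.10 and Relb from -0.13 to 0.10. Against 6 h, fewer than 7 members were then called lower at 24 h. Without 1 library at 24 h fewer of all genes were called lower too, 2127 to 2288 in place of 2734. For TGFβ against 7 d the ranges were -0.53 to 1.06 (Tnf), -0.035 to 0.84 (Nfkbia), -0.025 to 0.72 (Nfkbiz), -0.18 to 0.042 (Rel) and -0.068 to 0.090 (Rela). For TGFβ against ex vivo cells they were -0.59 to 1.14 (Tnf), -0.71 to 0.16 (Nfkbia), -0.0500 to 0.043 (Nfkb1) and -0.14 to 0.13 (Icam1). Relb was 0.68 there without TGFβ replicate 2. Without 1 ex vivo library 1 to 3 members were called lower there, beside 3649 to 3794 of all genes in place of 3801. Without 7 d replicates 2 and 3 the changes at 7 d were 0.18 (Tnf), 0.039 (Tnfaip3) and 0.18 (Relb), and for TGFβ against 7 d -0.0070 (Nfkbiz) and -0.14 (Rela). With no filter on low counts Relb at 7 d was 0.0065, and Nfkb1 and Icam1 with TGFβ against ex vivo cells were 0.018 and 0.020. With the deposited TPM Tnf at 7 d was 0.50, or 0.55 with a pseudocount of 0.1, and Rela with TGFβ against 7 d was -0.10. On that scale 0 members were called higher at 7 d against ex vivo cells, beside 3809 of all genes (4821 with the counts). For 24 h against 6 h 4 were called lower (3 with no filter), beside 1475 of all genes (1601 with no filter) in place of 2734. With TGFβ against ex vivo cells 4 were called lower, beside 5197 of all genes in place of 3801. With no filter 1 was called higher there, beside 2592 of all genes in place of 3920 with the counts. Except where the fit has fewer libraries, the cause was not tested. Few libraries at 6 h and with TGFβ limit what could be detected there.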
